A study of Sus scrofa with 6 samples.

Results

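Lipoprotein lipase (LPL), the fatty acid binding proteins FABP3 and FABP4 and the nuclear receptor PPARG were followed across ovary and uterine tissue of sows. The members were all probe sets whose only gene symbol on the platform was LPL, FABP3, FABP4 or PPARG. This gave 4 genes and 5 probe sets out of 6567 named genes and 9774 named probe sets. LPL had 2 probe sets and the other genes 1 each. The genes were chosen with their values on these arrays known, so those values are given as a description, without a test.

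The study compared sows that were not pregnant (NP), early pregnant (EP) or late pregnant (LP), and took ovary and a uterine sample labelled myometrium, the smooth muscle wall of the uterus. The arrays of that sample are called uterine arrays below. The 6 arrays were 1 of each tissue at each stage, ordered here as ovary NP, ovary EP and ovary LP, then uterine NP, uterine EP and uterine LP. The series describes 9 pigs, with 3 at each stage. The sources used here do not say if an array held RNA of 1 pig or of several, nor do they give the breed, age or day of pregnancy. No treatment or genetic change is named for any group. With 1 array per group there is no replicate error for any stage comparison, and no difference between stages could be set against the spread between animals.

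LPL is secreted by the cells of a tissue, is carried to the surface of capillaries and there splits the triglycerides of circulating lipoproteins into fatty acids. FABP3 and FABP4 bind fatty acids inside the cell and carry them to membranes, mitochondria and the nucleus. FABP3 is best known from heart and skeletal muscle, and FABP4 from adipocytes, macrophages and capillary endothelium. PPARG pairs with a retinoid X receptor, binds fatty acid derivatives and switches on genes of lipid uptake and storage. In mouse and human adipocytes LPL and FABP4 are among its targets, and in mouse PPARG is needed for the placenta to form. Granulosa and luteal cells of the ovary are also known to contain PPARG.

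Values are the authors' signals on a linear scale, with the same trimmed mean on every array. A signal of 81.7, the 40th percentile of all signals, was taken as the floor below which a probe set has only an upper bound. LPL and FABP3 lay above the floor on all 6 arrays. FABP4 and PPARG lay above it on 5, the exception in both being uterine NP. Each of the 4 genes therefore passed the filter of 2 arrays above the floor. The one technical yardstick came from genes with several probe sets, whose 2 brightest differed by a median of 0.31 in their log2 ratios, or 1.24-fold, over 11321 pairs pooled from 9 comparisons. The 90th percentile of this difference was 0.87.

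The tissue label was checked against marker genes. EPCAM and KRT8, an adhesion molecule and a keratin of simple epithelium, read 104 to 191 and 249 to 383 in ovary, against 9667 to 10845 and 4496 to 9978 on the uterine arrays. Of the 9 epithelial genes, 9 were lower in ovary by limma (adjusted p under 0.05; 5.07% of all probe sets passed either way). ACTA2 and TPM1, an actin and a tropomyosin of smooth muscle, read 18571 to 23509 and 7004 to 9698 in ovary, against 7613 to 14389 and 6325 to 8855 on the uterine arrays. By limma 0 of 10 smooth muscle genes passed (5 at unadjusted p under 0.05), and MYH11 was not among the genes named. The median log2 difference of the 10 genes, ovary minus uterine tissue, was 0.89, against 0.013 over all tested probe sets. At NP, EP and LP, 5, 6 and 1 of the 10 were 2-fold or more higher in ovary and 0 lower. Of all measured probe sets 8.74%, 12.4% and 12% were higher and 8.67%, 10.6% and 12.6% lower. Genes of trophoblast, the outer cell layer of the placenta, were bright on the pregnant uterine arrays. Their summed signal over 9 genes was 10156, 8132 and 7906 in ovary at NP, EP and LP, where the aromatase CYP19A3 made up most of it, and 3664, 62276 and 74828 on the uterine arrays. PAG6, a pregnancy-associated glycoprotein of trophoblast, read 75.2, 22022 and 28500 on the uterine arrays, PLET1, an epithelial gene of the placenta, 49.1, 32821 and 31638, and PEG10, an imprinted placental gene, 351, 435 and 8302 (PAG2 was not among the genes named). On the ovary arrays PLET1 read 140, 1661 and 14.2 and PAG6 36.6, 240 and 18.8. In a bulk sample, more cells of a type and more RNA per cell cannot be told apart, and this holds for every value below. The GAPDH 3'/5' signal ratio, which climbs as RNA degrades, was 2.33, 1.99 and 1.51 in ovary at NP, EP and LP and between 1.52 and 1.70 on the other arrays.

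LPL was low on both non-pregnant arrays and high on both early pregnant arrays. Its brighter probe set read 154, 1144 and 1781 in ovary at NP, EP and LP. On uterine arrays it read 102, 1368 and 365. The dimmer probe set read 132, 594 and 612 in ovary and 89.9, 482 and 147 on the uterine arrays. In both probe sets the 4 pregnant arrays lay above the 2 non-pregnant arrays, although the dimmer one separated uterine LP from ovary NP by 0.16 on the log2 scale, less than the typical difference between probe sets.

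In early pregnant ovary the LPL signal was 7.42-fold that of non-pregnant ovary by the brighter probe set and 4.51-fold by the dimmer. In late pregnant ovary it was 11.5-fold and 4.64-fold that of non-pregnant ovary. Both probe sets thus gave the same direction, while the size differed by over 2-fold at LP. Late and early pregnant ovary lay closer together, with an LP to EP ratio of 1.56 by the brighter and 1.03 by the dimmer probe set. On uterine arrays, EP was 13.4-fold and 5.36-fold above NP. LP stood below EP there, by 3.75-fold and 3.27-fold, and above NP by 3.57-fold and 1.64-fold, so the dimmer probe set did not reach 2-fold. With the floor at the 60th percentile the brighter one did not either, with a log2 ratio of 0.57. LPL was thus at least as high at LP as at EP in ovary, and lower at LP than at EP in uterine tissue.

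**Figure D1:**
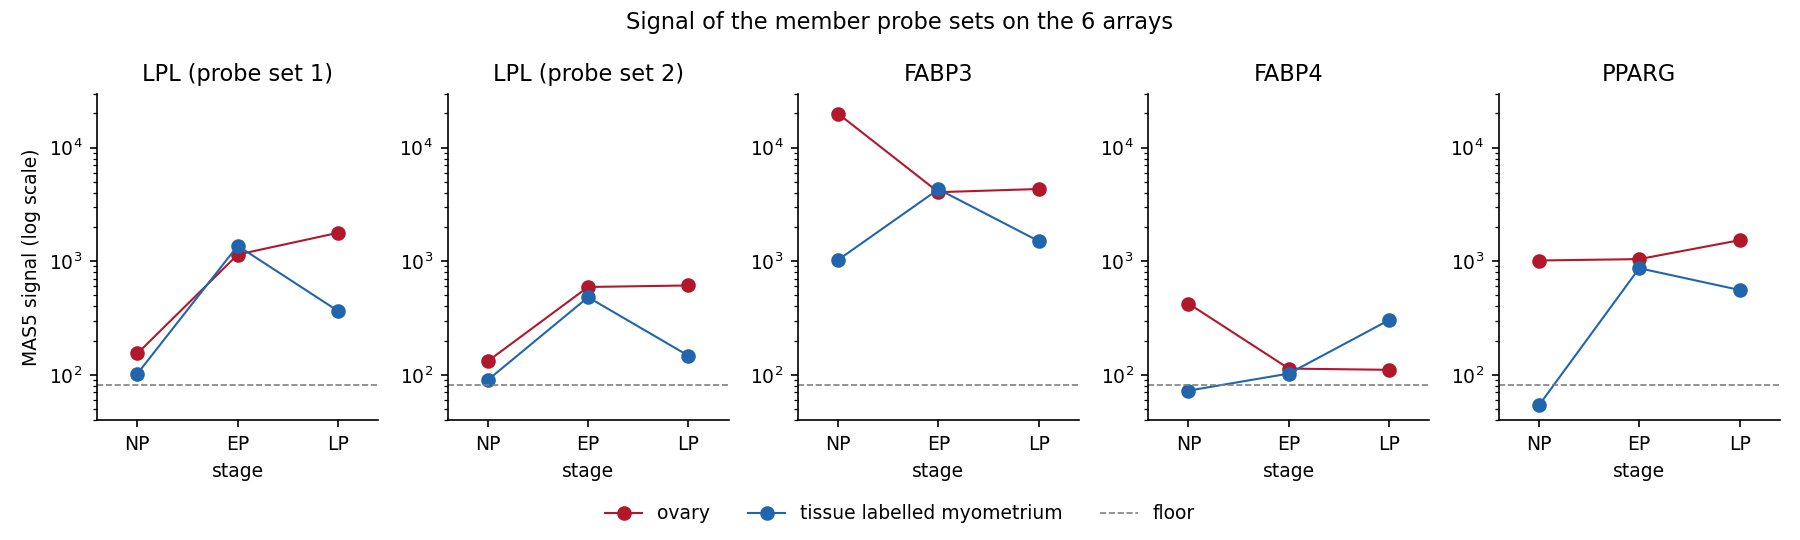
Signal of each member probe set (log scale, no unit) at the non-pregnant (NP), early pregnant (EP) and late pregnant (LP) stage, with 1 array per point, ovary in red and tissue labelled myometrium in blue, and the floor of 81.7 dashed. LPL is low at NP in both tissues, FABP3 reads 19934 in non-pregnant ovary against 1028.5 to 4328.5 elsewhere, and PPARG lies below the floor only on the uterine NP array.

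FABP3 was highest in non-pregnant ovary. It read 19934, 4058 and 4328.5 in ovary at NP, EP and LP, so the non-pregnant ovary stood far above every other array. On uterine arrays it read 1028.5, 4305 and 1502, highest at EP. The ovary LP, uterine EP and ovary EP arrays were next to each other in order and lay within 0.09 of their neighbour on the log2 scale, less than the typical difference between probe sets. Uterine LP and uterine NP followed, separated by 0.55. FABP3 was 4.91-fold lower in early pregnant than in non-pregnant ovary and 4.61-fold lower in late pregnant than in non-pregnant ovary. It was 4.19-fold higher at EP than at NP on the uterine arrays, and 2.87-fold lower at LP than at EP. Between NP and EP the FABP3 difference thus ran in opposite directions in the tissues, whereas LPL was higher at EP in both.

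FABP4 was dim and its ratios rest on signals near the floor. It read 424, 114 and 111 in ovary at NP, EP and LP, and 72.6, 103 and 304 on the uterine arrays. The non-pregnant ovary and the late pregnant uterine tissue were the high arrays. The ovary EP, ovary LP and uterine EP arrays read alike, within 0.11 on the log2 scale of their neighbours. FABP4 was 3.74-fold lower in early pregnant than in non-pregnant ovary and 3.83-fold lower in late pregnant than in non-pregnant ovary. On uterine arrays it was at least 3.72-fold higher at LP than at NP and 2.96-fold higher at LP than at EP. With the floor at the 60th percentile of signals (246), none of its stage differences reached 2-fold, and its log2 ratio was -0.79 in ovary both for EP over NP and for LP over NP.

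PPARG was nearly even in ovary and differed by stage on the uterine arrays. It read 1016, 1045 and 1532 in ovary at NP, EP and LP. It read 53.8, 869 and 559 on the uterine arrays, where the non-pregnant array lay below the floor. The early pregnant signal was at least 10.6-fold and the late pregnant signal at least 6.84-fold that of the non-pregnant array there. In ovary the ratio was 1.03 for EP over NP, 1.51 for LP over NP and 1.47 for LP over EP. In order of signal, ovary EP, ovary NP and uterine EP were neighbours that lay within 0.23 on the log2 scale of the next.

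**Figure D2:**
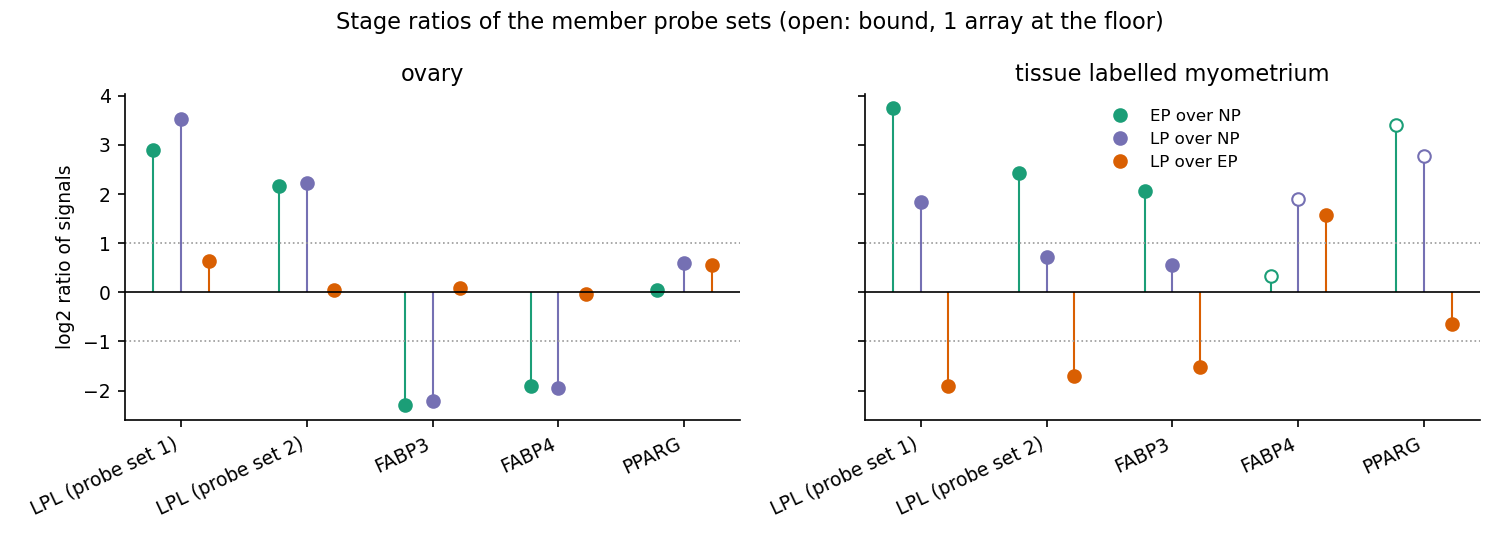
Log2 ratio of signals between stages for each member probe set, in ovary (left) and tissue labelled myometrium (right), for EP over NP, LP over NP and LP over EP, with 1 array on each side of a ratio. Dotted lines mark 2-fold and open circles are bounds. FABP3 and FABP4 lie below -1.9 in pregnant against non-pregnant ovary while LPL lies above 2.1.

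By the brightest probe set, 1 of the 4 genes was 2-fold or more higher (LPL) and 2 were lower (FABP3, FABP4) in early pregnant against non-pregnant ovary, where 4.59% of all measured probe sets passed 2-fold (2.45% higher, 2.15% lower). Late pregnant against non-pregnant ovary gave the same counts, with 6.57% of measured probe sets past 2-fold (2.92% higher, 3.65% lower). Between late and early pregnant ovary 0 of the 4 passed, against 4.2% of all (1.5% higher, 2.71% lower). Centring each array on its median shifted the median log2 ratio of all probe sets in ovary to 0.079, against -0.064 as deposited, for LP over NP. It turned the split of 439 higher and 549 lower probe sets into 635 and 394, and for LP over EP the split of 221 and 400 into 324 and 303. No member passed or lost 2-fold by it. On uterine arrays, LPL, FABP3 and PPARG were 2-fold or more higher at EP than at NP, where 19.1% of measured probe sets passed (8.76% higher, 10.3% lower). LPL, FABP4 and PPARG were higher at LP than at NP, where 23.5% passed (10.9% higher, 12.6% lower). Between LP and EP there, LPL and FABP3 were lower and FABP4 was higher, with 11.5% of all past 2-fold (5.87% higher, 5.62% lower). The genes were chosen for such differences, so nothing is read from these counts. The comparisons with NP share the non-pregnant array of their tissue.

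The distance between the tissues changed with stage in all 4 genes. At NP, FABP3 was 19.4-fold higher in ovary than in uterine tissue (19934 and 1028.5), PPARG at least 12.4-fold and FABP4 at least 5.19-fold, while LPL was 1.51-fold higher. Here 17.4% of measured probe sets differed by 2-fold or more (8.74% higher in ovary, 8.67% lower). At EP the tissues were close, and ovary over uterine tissue ranged from 0.836 for the brighter LPL probe set to 1.23 for the dimmer one, with FABP3 at 0.943, FABP4 at 1.11 and PPARG at 1.20. At that stage 0 of the 4 genes and 23% of measured probe sets (12.4% higher, 10.6% lower) differed by 2-fold or more. At LP, LPL was 4.88-fold, FABP3 2.88-fold and PPARG 2.74-fold higher in ovary. FABP4 was 2.75-fold lower in ovary (111 and 304). With the floor at the 60th percentile the FABP4 tissue differences were under 2-fold too, with log2 ratios of 0.79 at NP and -0.30 at LP. At LP 24.6% of all passed 2-fold (12% higher in ovary, 12.6% lower). Averaged over stages, the log2 difference, ovary minus uterine tissue, was 0.87 ± 0.52 for the brighter LPL probe set and 1.91 ± 0.77 for FABP3. It was at least 0.35 ± 0.70 for FABP4 and at least 1.79 ± 0.63 for PPARG, whose uterine NP signals were raised to the floor. The SE is that of limma for the additive fit, with variance partly borrowed from all tested probe sets (n = 3 arrays of different stages in each tissue).

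Markers of the cells best known for these genes were examined on the same arrays. Genes that define adipocytes were not above the floor: ADIPOQ (adiponectin) read at most 51.2 and LEP (leptin) at most 56.5, below the floor on every array, and PLIN1 was not among the genes named. Of 6 adipocyte genes, 2 lay above the floor on any array. These were CFD, a complement factor also made by other cells, and PCK1, an enzyme of glucose and glycerol synthesis. The summed signal of the 6 was 878, 1103 and 1140 in ovary at NP, EP and LP, and 1470, 1834 and 2220 on the uterine arrays. For striated muscle the creatine kinase CKM read between 51.3 and 313.5, the troponin TNNI1 between 10.5 and 541, and MB (myoglobin) was not among the genes named. The 13 striated muscle genes summed to between 431 and 691 in ovary and between 622 and 1264.5 on the uterine arrays.

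Several macrophage genes were lower in pregnant than in non-pregnant ovary, as FABP3 and FABP4 were. CD163, a scavenger receptor of macrophages, read 2938, 1380 and 1596 in ovary at NP, EP and LP, and 943, 445 and 1193 on the uterine arrays. AIF1, a calcium-binding protein of macrophages, read 1608, 908 and 847 in ovary, and 1136.5, 6127 and 5016 on the uterine arrays. Of 8 measured macrophage genes, 3 were 2-fold or more lower at EP than at NP in ovary and 0 higher (2.15% and 2.45% of all measured probe sets), and 4 were lower and 0 higher at LP than at NP (3.65% and 2.92%). The list's median log2 ratio was -0.84 for EP over NP and -0.99 for LP over NP in ovary, against -0.017 and -0.064 over all measured probe sets. The summed macrophage signal was 7836, 4618 and 4221 in ovary and 4406, 8286 and 8946 on the uterine arrays (CD68 was not among the genes named). Without AIF1, left out after its values were seen, it was 6228, 3709 and 3374 in ovary and 3269, 2158 and 3930 on the uterine arrays. On the uterine arrays 2 of the 8 genes were 2-fold or more higher and 1 lower at EP than at NP (8.76% and 10.3% of all measured probe sets). At LP against NP, 3 were higher and 1 lower there (10.9% and 12.6%). The list's median log2 ratio on the uterine arrays was -0.75 for EP over NP and 0.11 for LP over NP, against -0.17 and -0.14 over all measured probe sets. The part of macrophages in the FABP3 and FABP4 values was not tested, nor was that of the GAPDH ratio, which was also highest in non-pregnant ovary.

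The ovary EP array also differed from both other ovary arrays in smooth muscle and trophoblast genes. Of 10 smooth muscle genes, 5 were 2-fold or more higher and 0 lower at EP than at NP in ovary (median log2 ratio 1.13). Of all measured probe sets 2.45% were higher and 2.15% lower. At LP against EP, 0 of the 10 were higher and 7 lower (median -1.18), against 1.5% and 2.71% of all. Of 6 measured trophoblast genes, 3 were higher and 0 lower at EP than at NP in ovary, and 0 were higher and 3 lower at LP than at EP. At LP over NP in ovary, 0 of 10 smooth muscle genes passed 2-fold in either direction, against 6.57% of all measured probe sets. The part of smooth muscle and trophoblast cells in the LPL, FABP3 and FABP4 values of the ovary arrays was not tested.

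The endothelial sum was lowest on the uterine NP array. PECAM1 and CDH5, adhesion molecules between endothelial cells, read between 1744 and 1885 and between 1069 and 1205 in ovary, and between 1111 and 2200 and between 758 and 1108 on the uterine arrays. The 11 endothelial genes summed to 5498, 6941 and 6296 in ovary and to 3784, 5488 and 6556 on the uterine arrays. Luteal and granulosa genes summed to 116634, 125824 and 145313 in ovary over 17 genes, and to 2453, 14039 and 18570 on the uterine arrays. The luteal hormone RLN2 (relaxin) read 11029, 31900 and 29660 in ovary, and STAR, which brings cholesterol into mitochondria, read 28846, 23451 and 25987. On uterine arrays STAR read 13.2, 5573 and 6907, and RLN2 read at most 150. There PPARG and LPL were higher on the pregnant arrays, which also carried the trophoblast genes given above. The part of trophoblast and of cells with STAR in their values was not tested.

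**Figure D3:**
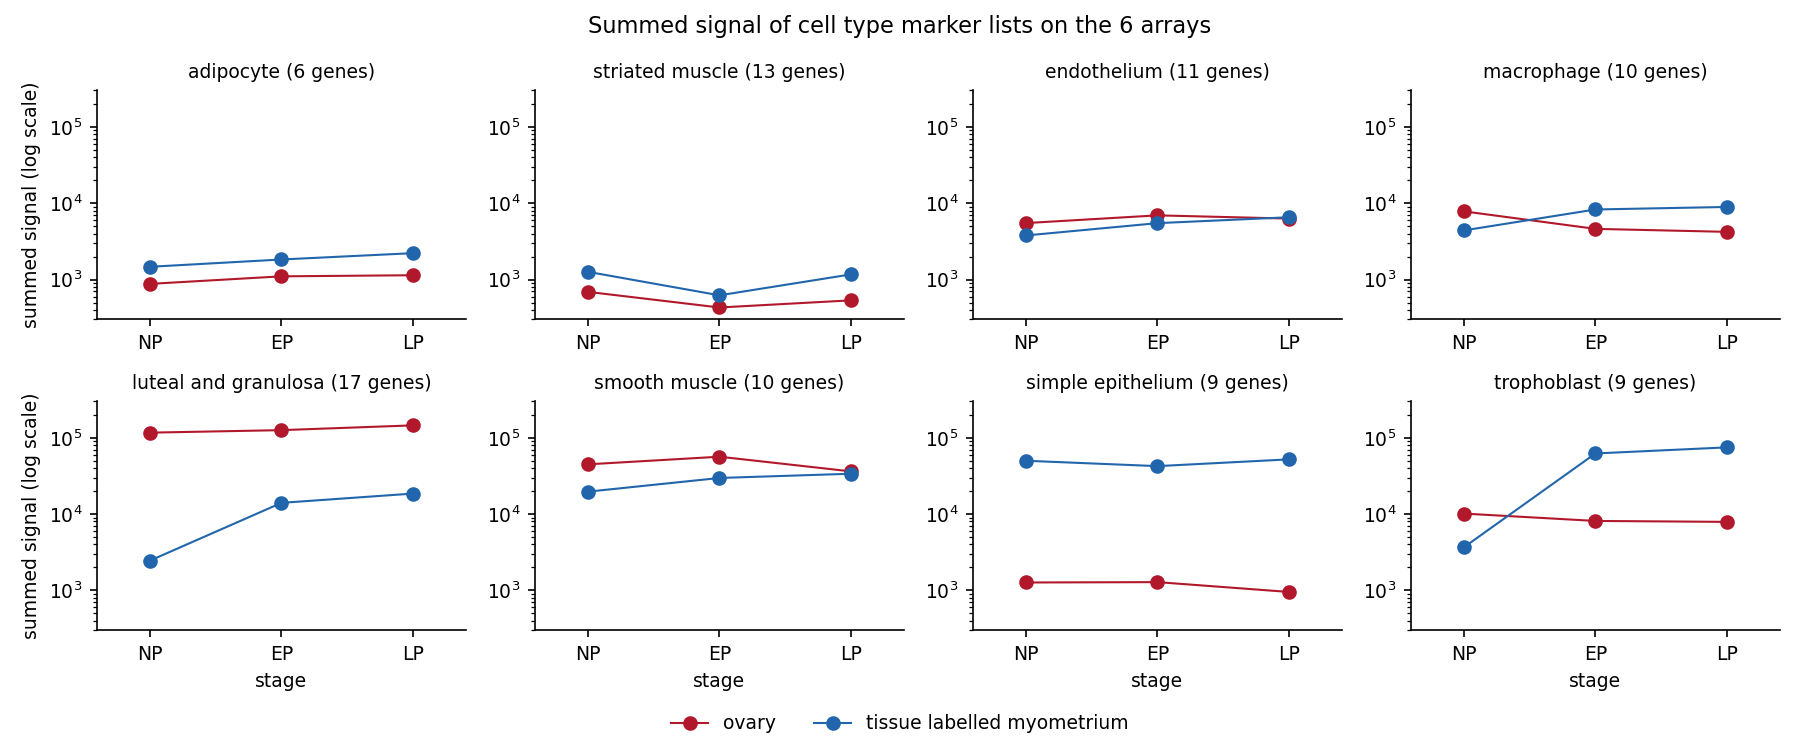
Summed signal (log scale) of 8 lists of cell type markers at each stage, 1 array per point, in ovary (red) and tissue labelled myometrium (blue). The trophoblast sum is 62276 and 74828 on the pregnant uterine arrays, against 3664 on the non-pregnant one, and the adipocyte sum is at most 2220.

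The genes that act with LPL were partly measured. Of 16 genes in the list of LPL partners and regulators, 6 were named on the array and at most 4 lay above the floor in a comparison. GPIHBP1, which carries LPL across the capillary wall, read 83.8 in non-pregnant ovary and at most 73.8 elsewhere, below the floor. ANGPTL4, which inactivates LPL and is itself switched on by PPAR receptors, read 1760, 1006 and 1159 in ovary at NP, EP and LP, and 166, 145 and 328 on the uterine arrays. It was higher in ovary, with a log2 difference of 2.67 ± 0.38 (SE, limma adjusted p = 0.0223) and higher signal at all 3 stages. APOE, a lipoprotein ligand for receptors, was 2.17-fold lower in late pregnant than in non-pregnant ovary (2484 and 5380). It was 2.84-fold higher at LP than at NP on the uterine arrays (8083 and 2847), and ANGPTL4 was 2.26-fold higher at LP than at EP there.

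Lipoprotein receptors and other lipases had 11 genes on the array and 10 tested between tissues. By limma 2 were higher in ovary and 1 on the uterine arrays, against 2.84% and 2.23% of all tested probe sets. SCARB1, the receptor for high-density lipoprotein, differed by 3.77 ± 0.38 on the log2 scale (SE, limma adjusted p = 0.0118). LRP8, a receptor of the low-density lipoprotein receptor family, differed by 3.71 (limma adjusted p = 0.0193), and was 2.96-fold lower at EP and 2.02-fold lower at LP than at NP in ovary. CES1, a carboxylesterase, differed by -2.67 (limma adjusted p = 0.0219). Its ovary arrays all lay below the floor, so this is at least 6.38-fold higher on the uterine arrays. At EP against NP on the uterine arrays, PNPLA3, a lipid droplet lipase, was at least 9.68-fold higher and PNPLA2, which starts triglyceride breakdown in cells, 2.44-fold. At LP against NP, PNPLA3 was at least 8.41-fold and MGLL, which splits monoglycerides, 5.16-fold higher there, while CES1 and the lysosomal lipase LIPA were 2.16-fold and 2.01-fold lower. Between LP and EP, MGLL was 2.88-fold higher and CES1 and LRP8 were 2.81-fold and 2.62-fold lower.

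Among the carriers, FABP5 was the other measured member of the binding protein family, and it did not share the ovarian pattern of FABP3 and FABP4. FABP5 read 2856.5, 3898 and 6252.5 in ovary at NP, EP and LP, 2.19-fold higher at LP than at NP. On uterine arrays it read 2420.5, 4893 and 5511, 2.28-fold higher at LP than at NP. FABP1, FABP2, FABP6 and FABP7 lay below the floor on every array, the highest being FABP2 at 77.2. ACSL1, which activates fatty acids with coenzyme A, was 2.90-fold higher in late pregnant than in non-pregnant ovary (841 and 290). The transporter SLC27A6 was 5.16-fold higher at EP than at NP on the uterine arrays (1036 and 201), 2.06-fold at LP against NP, and 2.51-fold lower at LP than at EP. The acyl-CoA binding gene ACBD5 was 2.66-fold higher at EP than at NP there. On the same arrays ACSL5 and ACSL3, also acyl-CoA synthetases, were 2.26-fold and 2.75-fold lower at EP and 4.21-fold and 3.24-fold lower at LP than at NP, and ACSL1 was 2.28-fold lower at LP than at EP. The synthetases ACSL6 and ACSL4 were higher in ovary, with log2 differences of 3.37 and 2.04 (limma adjusted p = 0.00868 and 0.0132). ACSL6 lay below the floor on all uterine arrays, so it was at least 10.3-fold higher in ovary.

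The RXR and other PPAR genes were dim, while some other genes of the PPARG partner list, such as CEBPB, were bright. RXRA, a heterodimer partner of PPARG, lay above the floor on 1 array (93.0 in early pregnant ovary), RXRG on 0 and RXRB on 6 (126 to 252). PPARA lay below the floor on every array and PPARD read between 99.0 and 213. CEBPB, a transcription factor that precedes PPARG in adipocyte differentiation, read 3420, 5121 and 7282 in ovary at NP, EP and LP. It read 2047, 6141 and 5965 on the uterine arrays, where EP and LP were 3.00-fold and 2.91-fold above NP, and in ovary LP was 2.13-fold above NP. CEBPD, of the same family, was 2.42-fold lower in late pregnant than in non-pregnant ovary. On uterine arrays the coactivator NCOA2 was 2.13-fold and 2.36-fold higher, and the transcription factor KLF15 2.10-fold and 2.66-fold lower, at EP and LP than at NP. Of 10 genes tested in the list, 0 differed between the tissues by limma (1 at unadjusted p under 0.05), where 5.07% of all tested probe sets did.

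**Figure D4:**
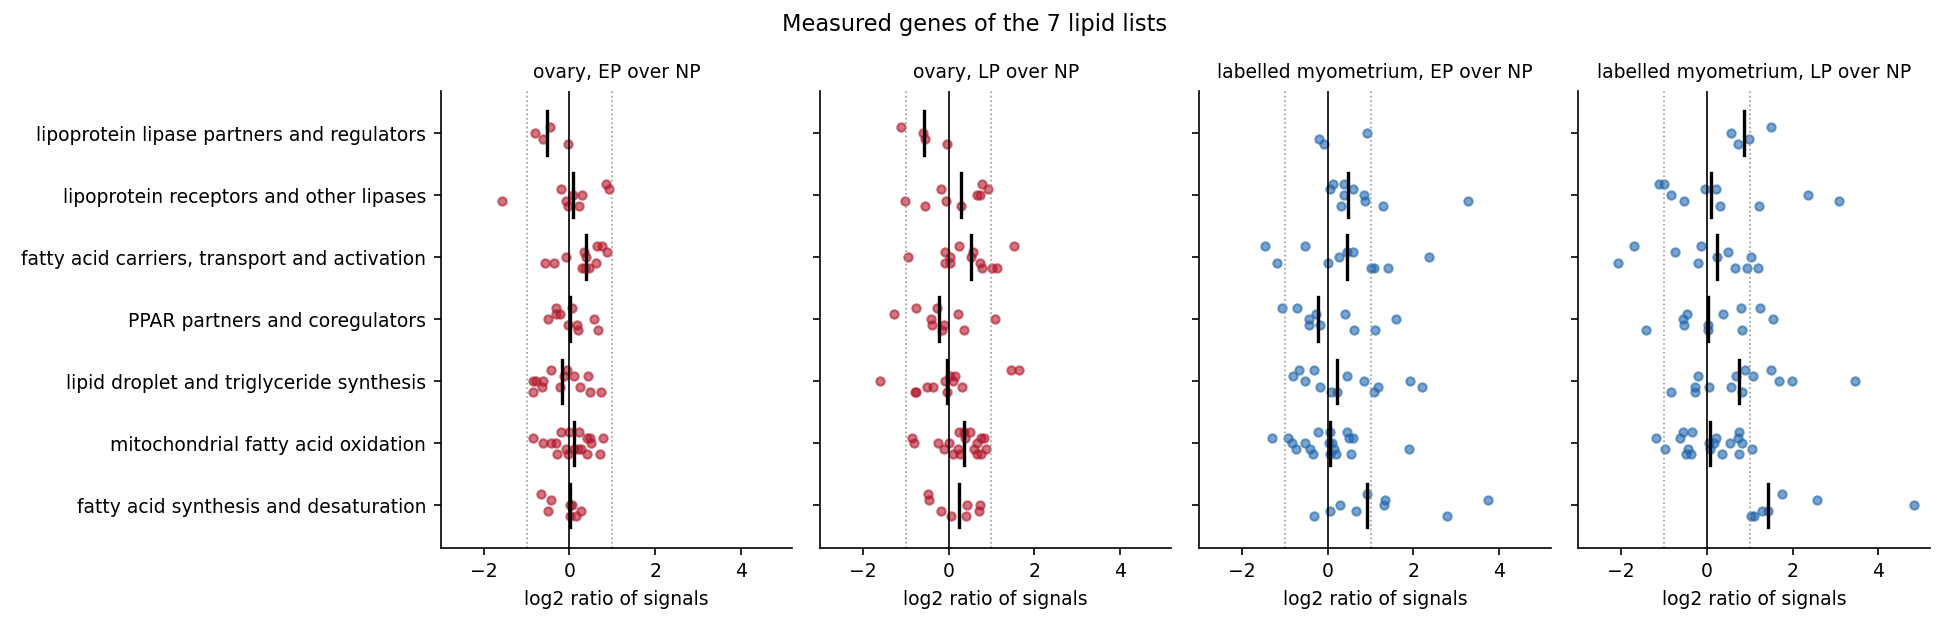
Log2 ratio of each measured gene (point) of 7 lists of lipid genes, for EP over NP and LP over NP in ovary (red) and tissue labelled myometrium (blue), with 1 array on each side. Black bars are list medians where at least 4 genes were measured and dotted lines mark 2-fold. In the fatty acid synthesis list, 7 of 7 measured genes lie at 2-fold or more at LP over NP on the uterine arrays. The lists were chosen with earlier results of these data known.

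Storage, oxidation and synthesis of fatty acids were read from the 3 remaining lists. In the fatty acid synthesis list, 7 of 7 measured genes were 2-fold or more higher at LP than at NP on the uterine arrays, where 10.9% of measured probe sets were. The list was chosen with earlier results of these data known, so this count is a description only. FASN (1205 at NP and 2459.5 at LP) and the desaturase FADS1 (147 and 316) passed narrowly. The FADS1 signal at NP lay below the 60th percentile floor of 246. The list's median log2 ratio was 1.43 on the uterine arrays, against -0.14 over all measured probe sets. In ovary it was 0.23 for LP over NP. There 0 of 8 genes passed 2-fold in either direction, against 6.57% of all measured probe sets. ME1, which supplies NADPH for fatty acid synthesis, read 109, 1459 and 3129 on the uterine arrays, and ELOVL6, an elongase, 1533, 10530 and 5184. The elongase ELOVL1 was 5.94-fold higher at LP than at NP and 3.15-fold higher at LP than at EP, and the fatty acid synthase FASN 2.54-fold higher at LP than at EP. In the lipid droplet list, 5 of 14 genes were higher and 0 lower at LP than at NP there, with the glycerol kinase GK 11.1-fold higher and CIDEA, a lipid droplet protein, at least 3.96-fold. At EP against NP they were 4.63-fold and at least 3.76-fold higher, and at LP against EP the acyltransferase GPAM was 3.27-fold and FITM1, a lipid droplet gene, at least 2.83-fold higher. In late pregnant ovary the triglyceride synthase DGAT2 was at least 3.14-fold and the lipin LPIN1 2.76-fold higher than in non-pregnant ovary, and the seipin gene BSCL2 was 3.01-fold lower. DGAT2 was 2.24-fold higher at LP than at EP in ovary. In the mitochondrial oxidation list, 0 of 19 genes passed 2-fold in ovary in either comparison with NP, where 4.59% (EP) and 6.57% (LP) of all measured probe sets did, with a median of 0.37 at LP over NP, against -0.064 over all. SLC25A20, the carnitine carrier, was 3.71-fold higher at EP and 2.06-fold higher at LP than at NP on the uterine arrays, and HADHA, of the trifunctional protein, 3.12-fold higher at LP than at EP. ACADL, a dehydrogenase of long-chain fatty acids, was higher in ovary (log2 difference 2.45, limma adjusted p = 0.0407), and 2.44-fold and 2.27-fold lower at EP and LP than at NP on the uterine arrays. By limma 0 of 15 lipid droplet genes and 0 of 8 fatty acid synthesis genes differed between the tissues (2 and 1 at unadjusted p under 0.05), against 5.07% of all tested.

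Over the 7 lipid lists, 0 of 76 measured genes were 2-fold or more higher and 1 lower in early pregnant against non-pregnant ovary, against 2.45% and 2.15% of all measured probe sets. In late pregnant against non-pregnant ovary 6 of 76 were higher and 4 lower, against 2.92% and 3.65%. On uterine arrays 17 of 75 were higher and 4 lower at EP than at NP, against 8.76% and 10.3% of all measured probe sets, and 21 of 76 were higher and 6 lower at LP than at NP, against 10.9% and 12.6%. The lists were chosen with earlier results of these data known, so nothing is read from these counts. A list gene is counted by its brightest probe set, whereas the shares are over all measured probe sets. Of 56 stage ratios past 2-fold of the lipid genes named above, 15 were under 2-fold with the floor at the 60th percentile. DGAT2 was then at 0.059 and BSCL2 at -0.22 on the log2 scale for LP over NP in ovary. On uterine arrays CIDEA was at 0.32 and 0.40 and KLF15 at -0.099 for EP and LP over NP, GK was at 0.96 for EP over NP, ACADL at -0.92 for both and SLC27A6 at 0.75 for LP over NP. For LP over EP, DGAT2 in ovary was at 0.059, and on uterine arrays GPAM was at 0.30, FITM1 at 0, ANGPTL4 at 0.41 and LRP8 at -0.57. Median centring took APOE (-0.96) and LRP8 (-0.86) for LP over NP in ovary under 2-fold. Between tissues, 6 of 77 tested genes were higher in ovary and 1 on the uterine arrays, against 2.84% and 2.23% of the 15882 probe sets tested. Each array of a tissue was from another stage, so these p-values measure agreement over stages and not over animals. Without the early pregnant arrays 0 of these 7 genes passed. Without the non-pregnant arrays ACSL6 and ACADL passed, and without the late pregnant arrays ANGPTL4, SCARB1, ACSL6 and CES1. With the floor at the 60th percentile CES1 did not pass, with a log2 difference of -1.08 (limma adjusted p = 0.138, and 0.00365 to 0.262 over its other alternatives).

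The genes with the nearest pattern to each member were found by the root mean square difference of centred log2 signals over the 6 arrays, among 5667 named genes. PPARG had near neighbours in PTGES, which makes prostaglandin E, at 0.40, the drug efflux pump ABCB1 at 0.43, COPRS at 0.48, the transcription factor GATA6 at 0.49 and REXO2 at 0.58. PTGES read 4985, 3317 and 6807.5 in ovary at NP, EP and LP, and 545, 2583 and 2770 on the uterine arrays. Like PPARG, these 5 genes were lowest on the uterine NP array, a likeness that the way they were picked favours. FABP4 was nearest to the pentraxin PTX3 at 0.34, followed by ABCD4 (0.41), KATNBL1 (0.48), HDAC6 (0.48) and ITGA5 (0.48). PTX3 read 2361, 1134 and 839 in ovary and 859, 642 and 1969 on the uterine arrays. FABP3 was nearest to the glutathione transferase GSTA1 at 0.63, then the chemokine CCL2 (0.65), the protease inhibitor TIMP1 (0.68), PLAC8 (0.70) and the gap junction gene GJA5 (0.74). GSTA1 read 36653, 25045 and 23890.5 in ovary and 3419, 17260 and 3393 on the uterine arrays.

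LPL had looser neighbours, with angiotensinogen AGT at 0.80, the aminopeptidase ENPEP at 0.84, PCK1 at 0.93, TP53INP2 at 0.96 and KIAA1324 at 0.96. The LPL probe sets themselves differed by 0.56 on this measure. AGT read 314.5, 1045 and 1789 in ovary at NP, EP and LP, and 338, 1614 and 1305 on the uterine arrays. It thus did not share the 3.75-fold lower LPL signal at LP than at EP there. PCK1 read 155, 223 and 674 in ovary and 89.8, 368.5 and 73.3 on the uterine arrays, highest there at EP as LPL was. Its uterine LP signal lay below the floor and below its NP signal, whereas LPL was higher at LP than at NP there. Among the members, PPARG and FABP3 were 1.08 apart, PPARG and LPL 1.13, FABP3 and FABP4 1.19, PPARG and FABP4 1.39, LPL and FABP3 1.96 and LPL and FABP4 2.09. The members were not among the 5667 candidates. Each of these distances was larger than that to the 5th neighbour of either gene.

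**Figure D5:**
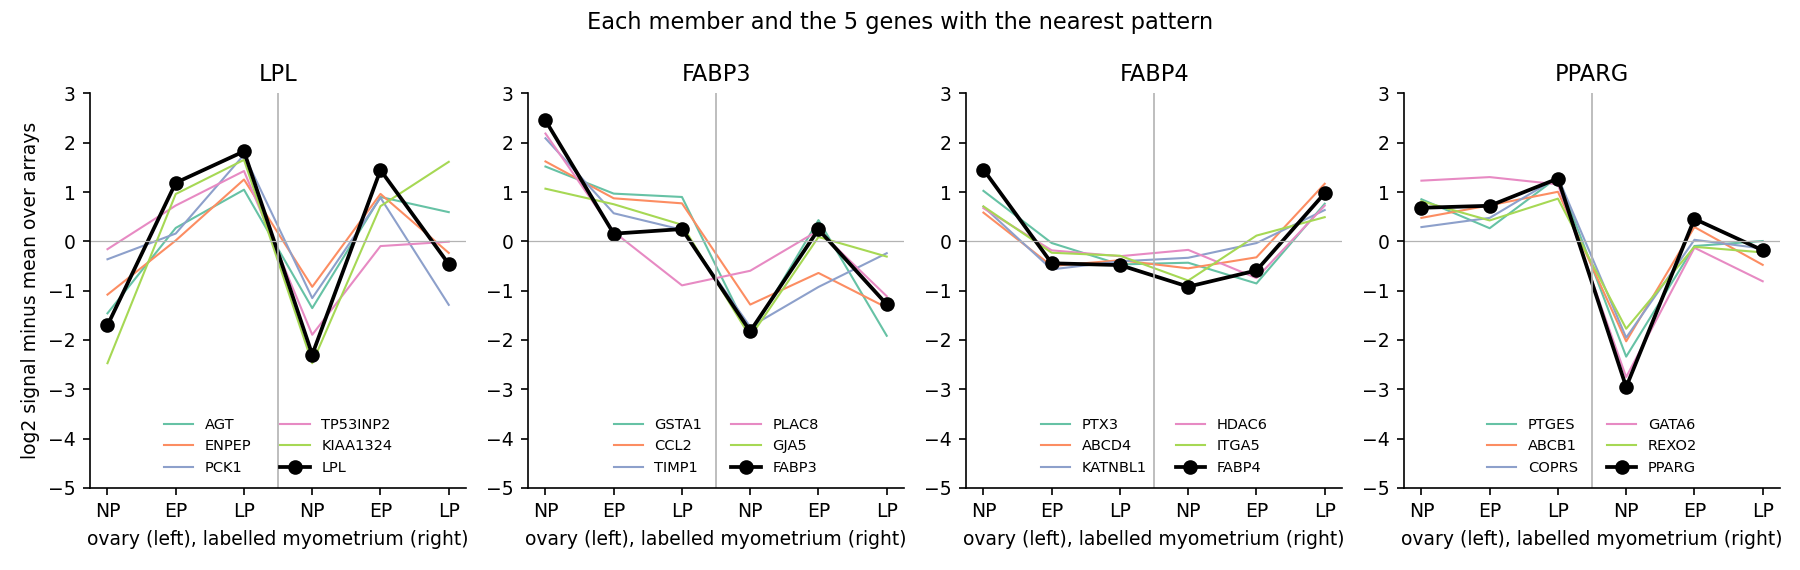
Log2 signal minus its mean over the 6 arrays for each member (black) and the 5 genes nearest to it by root mean square difference (colours), with the ovary arrays left of the grey line and the uterine arrays right of it. PPARG and its neighbours share their lowest value on the uterine NP array (myometrium NP on the axis), and LPL and its neighbours lie lower at NP than at EP in both tissues. The way the neighbours were picked favours such likeness.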

How the data were processed

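Per the labels' protocols, frozen tissue gave Trizol-extracted RNA, of which 6 ug was made into biotinylated cRNA for Affymetrix arrays. The authors deposited a linear intensity per probe set. The submitters' processing notes name MAS5 (version and settings: not given in the sources used here), which merges the probes of a probe set into a signal. After trimming 2% at each end the mean was 500.1 on every array, so a change in total RNA cannot be seen.

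Of 24123 probe sets, 124 controls were left out. Symbols came from the platform annotation, and 9961 of the 10069 probe sets with a single symbol matched a current gene record. Signals were raised to the floor before log2. A gene was represented by its brightest probe set, and a ratio with an array at the floor is written "at least". Stage comparisons have 1 array a side and no test. The tissue difference was fitted in R 4.3.3 by limma 3.58.1 (additive tissue and stage, intensity trend, 2 residual degrees of freedom, Benjamini-Hochberg adjustment over the 15882 probe sets that 2 or more arrays held above the floor), a step tested on simulated data. Python 3.11.15 did the rest. The number of arrays limits the precision.

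The members and lists were chosen with earlier results of these data known. Genes named from a lipid list were up to 3 per direction among those called between tissues and up to 2 per direction past 2-fold between stages, plus each list's role-bearing genes (GPIHBP1, FABP5 and the other binding proteins, RXR and PPAR genes, CEBPB), singled out after their values were seen. The genes with the nearest pattern were the 5 with the smallest difference. From marker lists, the genes named are those that define the type and the 2 brightest, and CYP19A3 was singled out after its values were seen. No genome came with the data, so positions and sequences were not used here.

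Alternatives were other floors, a pseudocount of 16, quantile normalization, median centring, no filter, fits without the trend or the stage block, leaving out a stage, and averaged probe sets.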

Additional observations from a re-analysis of the deposited data

Results flagged for a closer look

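LPL, FABP3, FABP4 and PPARG each had a stage log2 ratio of opposite sign in ovary and in the uterine tissue labelled myometrium, with 1 array per group. These differences of log2 ratios were not tested. FABP3 had log2 ratios for EP over NP of -2.30 in ovary and 2.07 on the uterine arrays, a difference of -4.36. Its log2 ratios for LP over NP were -2.20 and 0.55, a difference of -2.75, and for LP over EP 0.093 and -1.52, a difference of 1.61. The ovarian value of 0.093 is under the typical difference between probe sets of 0.31, so its sign carries little.

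FABP4 had log2 ratios for LP over NP of -1.94 in ovary and at least 1.90 on the uterine arrays, a difference of -3.83 as measured at the floor. For EP over NP the values were -1.90 and at least 0.33, a difference of -2.23 as measured at the floor, and for LP over EP -0.036 and 1.57, a difference of -1.60. The ovarian ratio for LP over EP is close to 0, so its sign carries little.

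LPL for LP over EP had log2 ratios of 0.64 in ovary and -1.91 on the uterine arrays by its brighter probe set, a difference of 2.55. By its dimmer probe set they were 0.044 and -1.71, a difference of 1.76. The value of 0.044 is also under 0.31, so the opposite sign for LPL rests on its brighter probe set. PPARG for LP over EP had 0.55 in ovary and -0.64 on the uterine arrays, a difference of 1.19.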

How the results depend on the processing

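No paired analysis was possible because each group is 1 array and the labels carry no replicate numbers, beyond the stage block of the tissue fit. No member ratio between stages that was past 2-fold reversed direction under the floors, pseudocount, scalings and probe set averaging run. Member ratios between tissues at each stage, list calls and likeness were rerun under alternatives chosen after seeing the data. Differences of under 0.31 on the log2 scale were counted as unmoved.

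With the floor at the 25th percentile (33.7), 2-fold counts were 687 higher (373 with the floor as reported) and 829 lower (327) for EP over NP, 1324 lower (549) for LP over NP and 392 higher (221) and 893 lower (400) for LP over EP in ovary. On the uterine arrays they were 2452 lower (1631) for EP over NP and 1514 higher (912) and 1423 lower (873) for LP over EP. The PPARG log2 ratios there became 4.01 for EP over NP and 3.38 for LP over NP. Of the 5 nearest genes, 2 were shared for FABP4 and 3 for PPARG.

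With the floor at the 60th percentile (246), ovary gave 185 higher and 122 lower for EP over NP, 269 and 198 for LP over NP and 104 and 181 for LP over EP. The uterine arrays gave 912 and 893 for EP over NP, 1163 lower for LP over NP, and 502 and 428 for LP over EP. Between tissues 298 were higher in ovary and 179 on the uterine arrays. LPL log2 ratios in ovary were 2.22 for EP over NP and 2.85 for LP over NP, and FABP4 ratios -0.79 for both. On the uterine arrays, EP over NP was 2.47 for LPL, 0 for FABP4 and 1.82 for PPARG, and LP over NP was 0.57, 0.30 and 1.18. FABP4 for LP over EP was 0.30. Of the alternatives for floor, pseudocount and scaling, this floor alone took members below 2-fold, in 7 of 22 calls between stages or tissues. These were FABP4 in all 6 of its calls (0.79 at NP and -0.30 at LP for ovary over uterine tissue) and LPL for LP over NP on the uterine arrays. It lies above several of their signals. Shared nearest genes were 1 for LPL, 1 for FABP4 and 3 for PPARG.

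With a pseudocount of 16, 504 probe sets were lower for EP over NP and 848 for LP over NP in ovary, and FABP4 and PPARG each shared 3 nearest genes. FABP3 shared 3 after quantile normalization. With LPL probe sets averaged, its log2 ratios were 2.53 and 2.87 in ovary and 3.08 and 1.27 on the uterine arrays, for EP over NP and LP over NP.

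Between tissues, limma called 451 probe sets higher in ovary and 354 on the uterine arrays. Without a filter limma called 0 and 0, with 2782 at unadjusted p under 0.05. Without the stage block it called 715 higher in ovary. Leaving out a stage gave 0 to 138 in ovary and 0 to 260 on the uterine arrays. Each such fit left fewer residual degrees of freedom, and the lowest counts came without the EP arrays (1790 at unadjusted p under 0.05). The 7 lipid genes called between tissues all lost their call without the filter and without the EP arrays. Without the NP arrays 5 of them lost it, CES1 included, and without the LP arrays 3 did. With the floor at the 60th percentile only CES1 lost it. Of 56 stage ratios of named lipid genes past 2-fold, 15 were under it with the floor at the 60th percentile, 5 with median centring, 3 with the pseudocount, 2 with quantile normalization and 0 with the floor at the 25th percentile.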
